A study of Homo sapiens with 6 samples.

Results

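Aminoacyl-tRNA synthetases are the enzymes that join each amino acid to its transfer RNA. The set described here holds 36 human genes, of the 58735 genes in the deposited table, chosen by name from the standard nomenclature: 20 encode the cytosolic enzymes and 16 encode the mitochondrial ones, whose symbols end in 2. All 36 had enough reads to be tested among 14520 genes. The rule that picks them uses no measured value, but the set was chosen with earlier results of these data known.

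A cytosolic synthetase charges the tRNAs used by ribosomes in the cytoplasm, and a separate nuclear-encoded enzyme is imported into mitochondria to charge the tRNAs used by mitochondrial ribosomes. GARS and KARS, for glycine and lysine, serve both compartments from single genes. Several cytosolic enzymes sit together in the multisynthetase complex. When charged tRNA runs short, the kinase GCN2 is activated by uncharged tRNA, translation of the transcription factor ATF4 increases, and many cytosolic synthetase genes are known ATF4 targets; ATF4 binds, with C/EBP partners, a DNA element known as the C/EBP-ATF response element.

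RNA was sequenced from MDA-MB-231, a mesenchymal-like human breast cancer cell line, in 2 groups. The overexpression group was transfected with a DNAJC12 vector (named DNAJC12v in the labels) and had 3 libraries, and the other group was transfected with an empty vector and also had 3. DNAJC12 encodes a J-domain co-chaperone of HSP70 that is known for assisting the aromatic amino acid hydroxylases. The labels give neither the time after transfection nor whether the cells were selected clones, and separate cultures are not mentioned for the libraries, so the p-values describe the spread among these 6 samples alone and that spread may be technical.

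Total counts ranged from 18340306 to 18887497 in the overexpression libraries and from 17967283 to 18343249 in the empty vector libraries. DNAJC12 had 522, 523 and 492 counts in overexpression libraries 1 to 3, against 1, 0 and 0 in empty vector libraries 1 to 3. Markers of the line were present in every library. VIM was at 164 to 193 FPKM, the authors' measure per transcript length and library depth, and CD44 at 56.0 to 67.1 FPKM. Among luminal or epithelial breast genes, ESR1 had 0 to 2 counts, PGR 0 to 3 and FOXA1 1 to 5. CDH1 and GATA3 had more, at 47 to 102 and 68 to 86 counts (0.391 to 0.815 and 1.1 to 1.58 FPKM). Of 3 markers of other cell types, PTPRC (leukocytes) had 0 to 2 counts and KRT5 (basal epithelium) 0 to 4. The endothelial marker PECAM1 had 110, 70 and 73 counts in overexpression libraries, against 423, 272 and 319 in empty vector libraries, a log2 fold change of -1.99 (adjusted p = 0.0125 by edgeR); its part in the results below was not tested. Overexpression library 2 had the highest mean GC content of counted transcripts, 54.01%, against 51.4% and 52.35% in overexpression libraries 1 and 3 and 51.98% to 53.38% in the empty vector libraries, and the lowest TMM factor, 0.853, against 0.996 to 1.09 in the other 5.

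Several cytosolic synthetase transcripts were more abundant with the DNAJC12 vector, and no mitochondrial one passed the test. Of the 20 cytosolic genes, 7 rose (adjusted p under 0.05), none fell, and 15 had a log2 fold change above 0; the 7 were WARS, AARS, GARS, SARS, YARS, MARS and CARS, at 2.11- to 3.19-fold. Over all tested genes, 0.585% rose and 0.661% fell. The median log2 fold change was 0.86 over the cytosolic genes and -0.18 over the mitochondrial genes, beside 0.05 over all tested genes. None of the 16 mitochondrial genes was called by edgeR, and none by DESeq2 or limma either. In bulk RNA, more transcript per cell and more cells carrying it cannot be told apart.

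**Figure D1:**
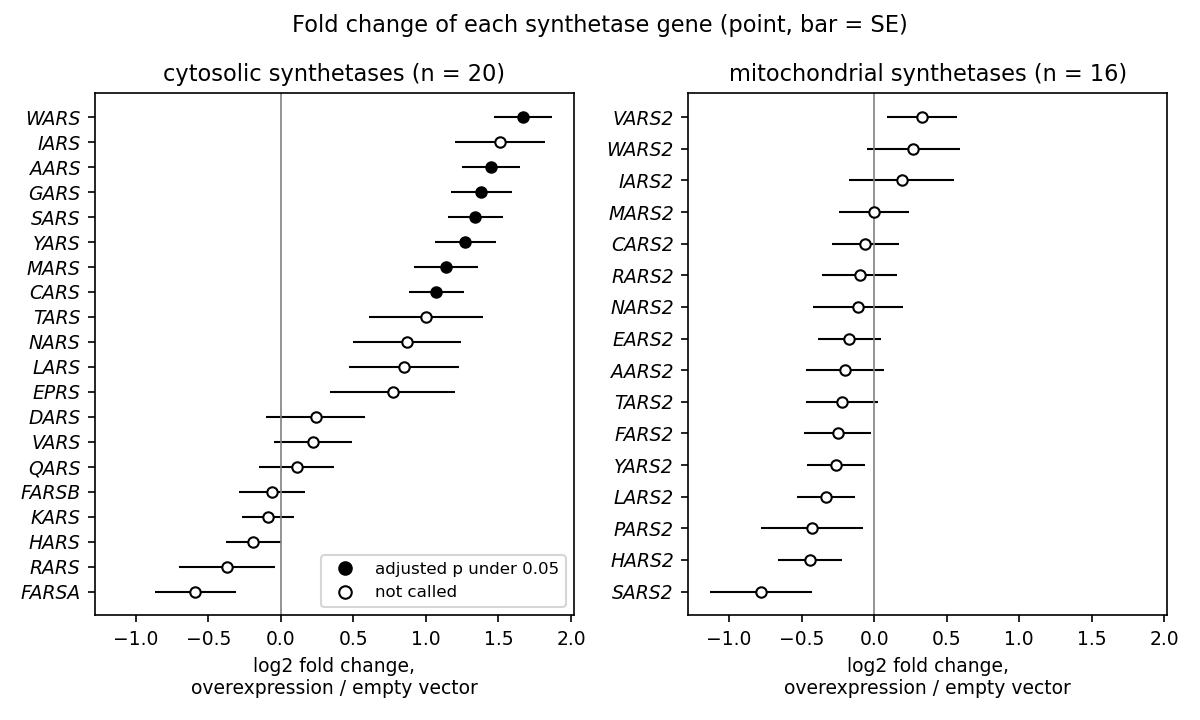
Log2 fold change, overexpression over empty vector, with its standard error, for each of the 36 synthetase genes, cytosolic and mitochondrial genes in separate panels. Filled points passed an adjusted p of 0.05; these are 7 cytosolic genes between 1.07 and 1.67, and no mitochondrial gene.

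The largest change was in WARS (ENSG00000140105; chromosome 14, 100333788 to 100376805, minus strand, GRCh38), which charges tRNA with tryptophan and is also known as an interferon-induced, secreted protein. Its normalised level, in CPM (counts scaled to library size with TMM factors), was 527.5, 694 and 589 in overexpression libraries 1 to 3, against 198, 189 and 181 in empty vector libraries 1 to 3. The groups did not overlap, and the log2 fold change was 1.67 ± 0.20 (SE from the edgeR fit, n = 3 each), with an adjusted p of 0.00553. This and the adjusted p-values that follow came from edgeR's quasi-likelihood test, adjusted over all tested genes by Benjamini and Hochberg's method.

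AARS, the alanine enzyme (ENSG00000090861; chromosome 16, 70252295 to 70289543, minus strand), had 290.4, 388 and 317 CPM in overexpression libraries, against 119, 114 and 131 CPM in empty vector libraries. Every overexpression library was above every empty vector library, and the log2 fold change was 1.45 ± 0.20 (adjusted p = 0.0117). GARS (ENSG00000106105; chromosome 7, 30594681 to 30634033, plus strand), in which inherited variants are known to cause a peripheral neuropathy, had 411, 339 and 416 CPM in overexpression libraries, against 174, 129 and 144 CPM in empty vector libraries. The groups again did not overlap (log2 fold change 1.38 ± 0.21, adjusted p = 0.0144), although overexpression library 2 was the lowest of its group.

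SARS, which charges both the serine and the selenocysteine tRNAs with serine (ENSG00000031698; chromosome 1, 109213918 to 109238169, plus strand), was the most abundant member in each group. It had 624, 757 and 649 CPM in overexpression libraries, against 278, 256 and 268 CPM in empty vector libraries. The gap between the groups exceeded the range within each of them, with a log2 fold change of 1.34 ± 0.19 (adjusted p = 0.0117).

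The remaining 3 genes that rose were YARS, MARS and CARS, for tyrosine, methionine and cysteine. YARS (ENSG00000134684) had 393, 574 and 444 CPM in overexpression libraries, against 197, 189 and 197 CPM in empty vector libraries. MARS (ENSG00000166986), whose product also charges the initiator tRNA, had 318, 492 and 341 CPM in overexpression libraries, against 167, 183 and 174 CPM in empty vector libraries. CARS (ENSG00000110619) had 279, 349 and 282.5 CPM in overexpression libraries, against 145, 141 and 146 CPM in empty vector libraries. In each of the 3 the groups did not overlap and overexpression library 2 was the highest. Their log2 fold changes were 1.27 ± 0.21 for YARS (adjusted p = 0.0233), 1.14 ± 0.22 for MARS (adjusted p = 0.0454) and 1.07 ± 0.19 for CARS (adjusted p = 0.0312).

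IARS, the isoleucine enzyme, had a log2 fold change of 1.51 ± 0.31 and missed the threshold (adjusted p = 0.0542). Its levels were 521, 225 and 414 CPM in overexpression libraries, against 163, 109 and 134.5 CPM in empty vector libraries. The groups did not overlap, but overexpression library 2 was far below the other 2 of its group. With IARS, 8 of 20 cytosolic genes had overexpression libraries all above the empty vector libraries, beside 9.26% of all tested genes, and 10 of 20 were higher with an unadjusted p below 0.05, beside 7.25%.

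**Figure D2:**
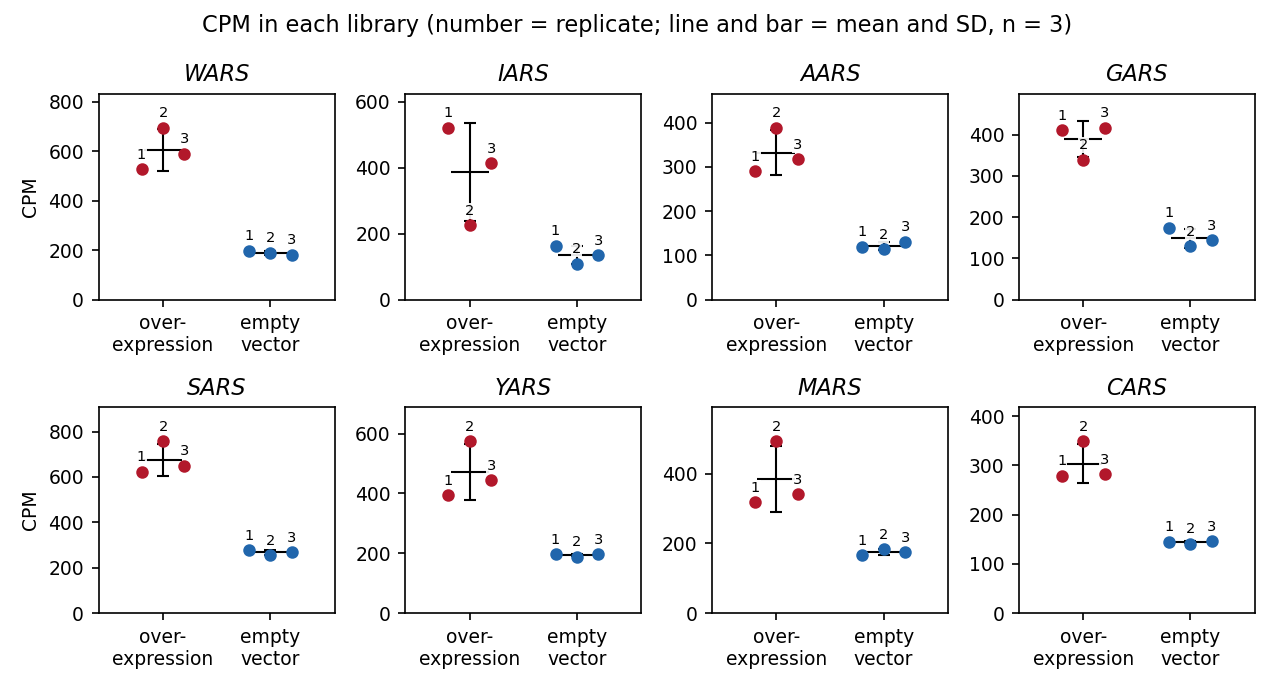
CPM in each library for the 7 genes that rose and IARS, overexpression at left and empty vector at right, with replicate numbers, mean and SD (n = 3 each). In all 8 panels the overexpression libraries lie above the empty vector libraries; library 2 is the lowest overexpression library for IARS and GARS and the highest for the other 6.

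These calls depended on single libraries. All 7 held without overexpression library 1 or 2. Without overexpression library 3 or empty vector library 2, WARS was the 1 cytosolic gene called (adjusted p = 0.0422 and 0.0413), and without empty vector library 1 or 3 none was (adjusted p for WARS 0.0590 and 0.0648). Calls over all genes, 181 with all 6 libraries, were 249 and 3365 without overexpression library 1 and 2. They were 25 without overexpression library 3, and 25, 41 and 27 without empty vector libraries 1, 2 and 3. The log2 fold changes of the 7 stayed above 0 in each of these 6 fits, the lowest being 0.92 for MARS without overexpression library 2.

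The promoters of the cytosolic genes were searched because several moved together. Windows from 250 bases before to 50 bases after the RefSeq transcription start (GRCh38.p14) were found for 30 of the 36 members, 16 of them cytosolic; DARS, LARS, VARS, YARS, AARS2 and VARS2 had none in the table used. The motif was the C/EBP-ATF response element core, TGATGNAA, with the form TGATGCAA counted within it, on both strands. TGATGCAA was present in 6 of 16 cytosolic genes and 0 of 14 mitochondrial genes, beside 1.08% of 27305 genes with a window. TGATGNAA was present in 7 of 16 cytosolic genes, GARS being the addition, and in 1 of 14 mitochondrial genes, YARS2, beside 4.46% of all genes.

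Matches in 7 of the 8 genes are printed 5′ to 3′ on the strand where the motif reads TGATGNAA, with 10 bases on each side and the motif in capitals, so that the shared core and its differing neighbours can be compared.
IARS: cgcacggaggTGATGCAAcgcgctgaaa
GARS: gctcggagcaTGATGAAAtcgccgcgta
MARS: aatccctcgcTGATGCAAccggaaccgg
CARS: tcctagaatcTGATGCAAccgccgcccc
TARS: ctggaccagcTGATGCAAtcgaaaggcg
NARS: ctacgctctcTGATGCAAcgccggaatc
YARS2: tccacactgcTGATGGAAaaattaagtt
In IARS, GARS, MARS and CARS the match began 13, 33, 4 and 2 bases before the transcription start. In YARS2 it began 197 bases before the start. In TARS and NARS it lay 2 and 14 bases after it. The GARS match read TGATGAAA and the YARS2 match TGATGGAA, and the other 5 printed read TGATGCAA.

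Whole promoter windows are shown for GARS, MARS and CARS, 3 of the 4 genes that rose and held a match, with the match in capitals, and for FARSB and MARS2, the cytosolic and the mitochondrial member with a log2 fold change nearest 0. Each reads 5′ to 3′ on the gene's own strand, where the match appears as its reverse complement, TTGCATCA or, in GARS, TTTCATCA. The windows are chr7:30594628-30594927 (GARS, plus strand), chr12:57487818-57488117 (MARS, plus), chr11:3057374-3057673 (CARS, minus), chr2:222656043-222656342 (FARSB, minus) and chr2:197705119-197705418 (MARS2, plus).
GARS: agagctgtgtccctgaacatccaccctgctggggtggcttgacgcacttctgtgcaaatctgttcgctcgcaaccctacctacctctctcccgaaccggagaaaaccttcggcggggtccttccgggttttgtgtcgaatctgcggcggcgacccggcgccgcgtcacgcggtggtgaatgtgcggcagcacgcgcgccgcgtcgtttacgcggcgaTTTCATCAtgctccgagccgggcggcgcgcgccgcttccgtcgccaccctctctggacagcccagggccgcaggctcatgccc
MARS: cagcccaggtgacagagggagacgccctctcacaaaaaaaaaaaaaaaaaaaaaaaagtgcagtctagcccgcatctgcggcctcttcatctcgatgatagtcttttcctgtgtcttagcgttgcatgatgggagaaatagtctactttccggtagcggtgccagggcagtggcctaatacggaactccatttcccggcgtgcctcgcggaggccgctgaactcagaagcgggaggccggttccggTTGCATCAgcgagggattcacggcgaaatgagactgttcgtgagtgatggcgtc
CARS: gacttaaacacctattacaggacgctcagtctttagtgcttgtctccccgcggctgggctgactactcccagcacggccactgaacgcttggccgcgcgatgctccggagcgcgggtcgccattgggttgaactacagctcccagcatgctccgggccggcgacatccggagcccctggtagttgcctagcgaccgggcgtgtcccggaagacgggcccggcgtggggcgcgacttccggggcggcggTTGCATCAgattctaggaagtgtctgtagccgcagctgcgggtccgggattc
FARSB: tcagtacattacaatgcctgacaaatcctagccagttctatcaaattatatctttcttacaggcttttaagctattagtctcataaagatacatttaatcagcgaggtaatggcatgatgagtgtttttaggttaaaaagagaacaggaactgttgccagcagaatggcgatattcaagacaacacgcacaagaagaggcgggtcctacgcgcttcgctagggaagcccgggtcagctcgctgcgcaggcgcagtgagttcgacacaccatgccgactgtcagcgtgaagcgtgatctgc
MARS2: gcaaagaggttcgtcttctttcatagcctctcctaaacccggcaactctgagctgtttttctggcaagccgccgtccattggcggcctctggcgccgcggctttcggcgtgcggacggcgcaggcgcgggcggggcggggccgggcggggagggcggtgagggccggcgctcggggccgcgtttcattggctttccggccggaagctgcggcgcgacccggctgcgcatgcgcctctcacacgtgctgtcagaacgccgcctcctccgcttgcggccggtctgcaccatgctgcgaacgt
The 6 cytosolic genes with TGATGCAA had log2 fold changes from 0.87 to 1.51, with a median of 1.10, and 3 of them rose (AARS, MARS and CARS). The 10 cytosolic genes without it ranged from -0.59 to 1.67, with a median of 0.02, and 3 of those rose too (WARS, SARS and GARS). A match is a run of letters and no measure of binding, and a window without one says nothing of the factor.

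**Figure D3:**
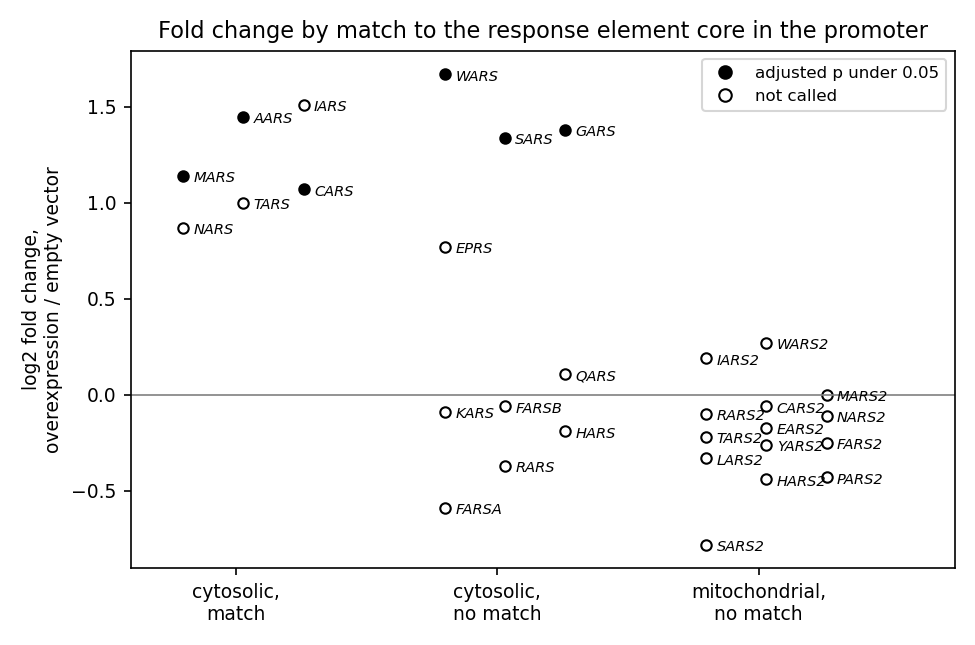
Log2 fold change, overexpression over empty vector, of the 30 synthetase genes with a promoter window, split by class and by a match to TGATGCAA; filled points passed an adjusted p of 0.05. The 6 cytosolic genes with a match lie between 0.87 and 1.51, the 10 without between -0.59 and 1.67, and the 14 mitochondrial genes, none with a match, between -0.78 and 0.27; GARS and YARS2, which hold other forms of TGATGNAA, stand among the genes without.

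Among the other cytosolic genes, 4 had log2 fold changes near 1 with groups that overlapped. TARS, the threonine enzyme, had 364, 108.5 and 252 CPM in overexpression libraries, against 149, 93.3 and 121 CPM in empty vector libraries (log2 fold change 1.0, adjusted p = 0.291). EPRS, a fused enzyme for glutamate and proline, had 149, 35.5 and 94.85 CPM in overexpression libraries, against 63.0, 42.8 and 57.7 CPM in empty vector libraries (0.77, adjusted p = 0.467). NARS and LARS, for asparagine and leucine, had log2 fold changes of 0.87 and 0.85 (adjusted p = 0.334 and 0.363); LARS is also known as a leucine sensor for mTORC1. In these 4 genes overexpression library 2 lay inside or below the empty vector range while overexpression libraries 1 and 3 lay above it.

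The other 8 cytosolic genes lay between -0.59 and 0.24. FARSA and FARSB, the alpha and beta subunits of the phenylalanine enzyme, had log2 fold changes of -0.59 and -0.06. FARSA had 73.05, 151.5 and 90.4 CPM in overexpression libraries, against 142, 176 and 156 CPM in empty vector libraries, so that overexpression library 2 overlapped the empty vector group and the other 2 did not (adjusted p = 0.385). KARS, the other dual-compartment enzyme, had 168.5, 188 and 176 CPM in overexpression libraries, against 198, 187 and 182 CPM in empty vector libraries, and its log2 fold change was -0.09 ± 0.18. Values were 0.24 for DARS, 0.22 for VARS, 0.11 for QARS, -0.19 for HARS and -0.37 for RARS (aspartate, valine, glutamine, histidine and arginine).

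Within the cytosolic class, the 8 genes counted here as members of the multisynthetase complex (EPRS, IARS, LARS, MARS, QARS, RARS, KARS and DARS) had a median log2 fold change of 0.51, and 1 of them rose. The 12 genes outside it had a median of 1.04, and 6 rose. Their GC content differed as well, with medians of 42.7% in the complex and 50.3% outside it, and overexpression library 2 was the lowest of its group in 5 of 8 and 4 of 12 genes. By catalytic fold, 4 of 9 class I genes and 3 of 10 class II genes rose, with median log2 fold changes of 1.07 and 0.56; EPRS belongs to both. The difference between these subsets was not tested.

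The mitochondrial genes lay in a narrower range, from -0.78 to 0.33, and 12 of 16 were below 0. By edgeR none had an unadjusted p below 0.05, beside 6.86% of all tested genes on the lower side. In 4 of them, HARS2, LARS2, SARS2 and YARS2, the overexpression libraries all lay below the empty vector libraries, as they also did for HARS, a total of 5 of 36 members beside 10.8% of all tested genes.

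HARS2, the mitochondrial histidine enzyme, had 21.3, 18.6 and 23.1 CPM in overexpression libraries, against 27.6, 30.05 and 27.9 CPM in empty vector libraries (log2 fold change -0.44, adjusted p = 0.401). YARS2, for tyrosine, had 32.4, 28.4 and 32.1 CPM in overexpression libraries, against 36.1, 36.8 and 38.4 CPM in empty vector libraries (-0.26, adjusted p = 0.614). In each the overexpression libraries all lay below the empty vector libraries without passing the test. SARS2, for serine, had the lowest value and few reads, with 25, 26 and 27 counts in overexpression libraries, against 32, 62 and 42 counts in empty vector libraries (-0.78 ± 0.35, adjusted p = 0.362). VARS2, for valine, had the highest value, at 38.8, 63.0 and 40.0 CPM in overexpression libraries, against 36.9, 40.9 and 35.3 CPM in empty vector libraries (0.33, adjusted p = 0.603), with overlapping groups. MARS2, for methionine, had a log2 fold change of 0.00. It was -0.17 for EARS2, -0.25 for FARS2, -0.22 for TARS2 and 0.27 for WARS2 (glutamate, phenylalanine, threonine and tryptophan).

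The class averages were compared library by library. The mean log2 CPM of the 20 cytosolic genes was 7.70, 7.42 and 7.61 in overexpression libraries 1 to 3, against 7.09, 6.84 and 6.91 in empty vector libraries 1 to 3. That of the 16 mitochondrial genes was 4.37, 4.43 and 4.36 in overexpression libraries, against 4.58, 4.62 and 4.50 in empty vector libraries. On this TMM-scaled measure the cytosolic mean was higher, and the mitochondrial mean lower, in every overexpression library than in any empty vector library. The cytosolic minus mitochondrial difference was 3.19 ± 0.18 in overexpression libraries and 2.38 ± 0.15 in empty vector libraries (SD, n = 3 each), a gap of 0.81.

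On the authors' length-normalised scale, the cytosolic genes summed to 965.5, 1026 and 946 FPKM in overexpression libraries, against 596.5, 555 and 552 FPKM in empty vector libraries. The mitochondrial genes summed to 113, 105 and 105 FPKM in overexpression libraries, against 119.6, 118.6 and 114 FPKM in empty vector libraries. As a share of all counts, the cytosolic genes took 0.567%, 0.463% and 0.517% in overexpression libraries, against 0.304%, 0.273% and 0.289% in empty vector libraries. The mitochondrial genes took 0.0529%, 0.0414% and 0.0467% in overexpression libraries, against 0.0524%, 0.0513% and 0.0508% in empty vector libraries. On this share, which uses no TMM scaling, the cytosolic groups did not overlap, while the mitochondrial groups did and overexpression library 1 was the highest of the 6.

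**Figure D4:**
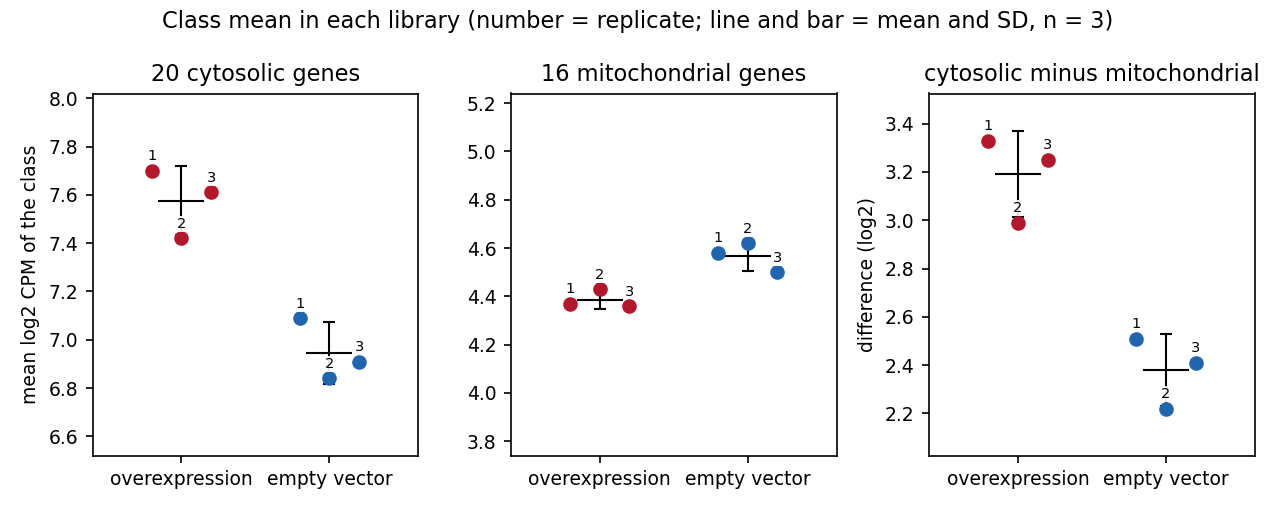
Class means by library, as log2 CPM over the 20 cytosolic and the 16 mitochondrial synthetase genes, overexpression at left and empty vector at right, with replicate numbers, mean and SD (n = 3 each). The cytosolic means are 7.42 to 7.70 in overexpression libraries and 6.84 to 7.09 in empty vector libraries; the mitochondrial means are 4.36 to 4.43 in overexpression libraries and 4.50 to 4.62 in empty vector libraries. The right panel shows the cytosolic minus mitochondrial difference, 3.19 ± 0.18 in overexpression libraries and 2.38 ± 0.15 in empty vector libraries.

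For 13 amino acids the cytosolic and the mitochondrial gene share a symbol apart from the final 2, which allows a comparison within each library. Phenylalanine, glutamate and proline also have genes in both classes of this set but were left out of these pairs. Log2 fold changes were -0.59 for FARSA and -0.06 for FARSB, against -0.25 for FARS2. They were 0.77 for EPRS, against -0.17 for EARS2 and -0.43 for PARS2. The cytosolic log2 fold change exceeded the mitochondrial one in 11 of 13 pairs, with a median difference of 1.18; the exceptions were valine (-0.11) and arginine (-0.28). In 9 pairs the log2 ratio of cytosolic to mitochondrial CPM was higher in every overexpression library than in any empty vector library. The groups overlapped in 4. The 9 include histidine, where both log2 fold changes were negative (-0.19 for HARS and -0.44 for HARS2). The HARS to HARS2 log2 ratio was 2.14, 2.55 and 2.07 in overexpression libraries, against 1.99 to 2.01 in empty vector libraries. How often gene pairs outside the set differ in this way was not tested. The SARS to SARS2 log2 ratio differed most, at 8.84, 8.76 and 8.74 in overexpression libraries, against 7.26, 6.17 and 6.84 in empty vector libraries, and rests on the few SARS2 reads. The AARS to AARS2 log2 ratio was 4.18, 3.99 and 4.23 in overexpression libraries, against 2.60, 2.09 and 2.78 in empty vector libraries.

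IARS and IARS2 have nearly the same GC content, 43.2% and 42.4%. Their log2 ratio was 1.90, 2.30 and 2.03 in overexpression libraries, against 0.70, 0.65 and 0.73 in empty vector libraries. The low value of IARS in overexpression library 2 was shared by IARS2, which had 139, 45.65 and 101 CPM in overexpression libraries, against 100.4, 69.7 and 81.2 CPM in empty vector libraries. The groups did not overlap in this ratio, as they did not for IARS itself. RARS and RARS2, at 40.9% and 41.4% GC, had a log2 ratio of 1.81, 1.37 and 1.84 in overexpression libraries, against 2.31, 1.82 and 1.75 in empty vector libraries, and there the groups overlapped.

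GC content moved with the values of overexpression library 2 across the set. The log2 CPM of that library minus the mean of overexpression libraries 1 and 3 had a Pearson r of 0.86 with the GC content of the gene's transcripts over the 36 members, beside 0.78 over 14518 tested genes; these points share the same 3 libraries. Among cytosolic genes under 45% GC, 8 in number, the median gap was -1.25, and among the 12 others it was 0.34. The fold changes themselves followed GC weakly, with r = -0.25 over the 36 members and -0.11 over the 20 cytosolic genes.

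With a GC correction in every library, 11 cytosolic genes rose, the 7 above with IARS, TARS, NARS and LARS, and FARSA and RARS fell, beside 10.2% of all tested genes higher and 9.77% lower. VARS2 rose (0.39, adjusted p = 0.0299) and HARS2 fell (-0.43, adjusted p = 0.0341) in that fit. Without overexpression library 2, 12 cytosolic genes rose, the same 11 with EPRS, while FARSA and PARS2, the mitochondrial proline enzyme, fell, beside 12.1% higher and 10.4% lower.

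**Figure D5:**
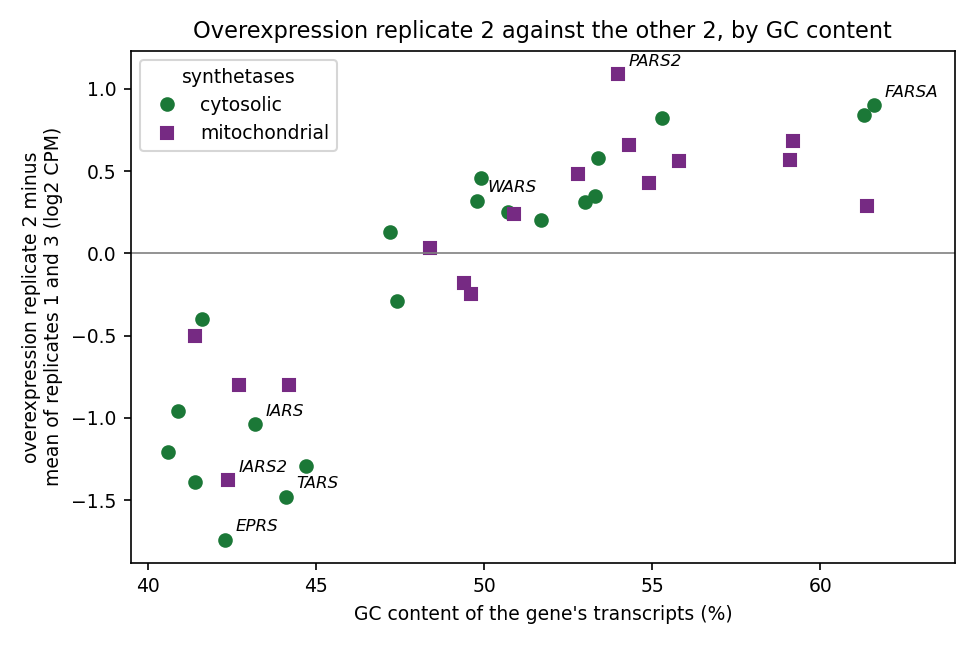
Overexpression library 2 minus the mean of overexpression libraries 1 and 3 (log2 CPM) against the GC content of each gene's transcripts (%), 36 synthetase genes, 1 point a gene, circles cytosolic and squares mitochondrial. The gap is negative for low GC genes such as IARS, TARS and EPRS and positive for FARSA and PARS2; r is 0.86.

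The order of levels within the set differed between the groups. On the FPKM scale SARS ranked 1 in both groups, at 175 ± 19.6 FPKM in overexpression libraries and 69.4 ± 2.55 FPKM in empty vector libraries. WARS ranked 2 in overexpression libraries, at 94.0 ± 13.8 FPKM, and 7 in empty vector libraries, at 29.7 ± 1.26 FPKM. FARSA ranked 11 in overexpression libraries, at 42.8 ± 17.1 FPKM, and 2 in empty vector libraries, at 64.7 ± 7.28 FPKM (SD, n = 3 each). The most abundant mitochondrial gene was IARS2, at 22.6 ± 11.1 FPKM in overexpression libraries and 19.99 ± 3.59 FPKM in empty vector libraries, and the least abundant was SARS2, at 0.440 ± 0.0634 FPKM in overexpression libraries and 0.760 ± 0.277 FPKM in empty vector libraries.

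Among genes that act beside the synthetases, the calls differed with the fit. Of 25 such genes 23 were tested (EEF1G was listed at 0 in every library and AARSD1 was too low); none passed the edgeR test, and at an unadjusted p below 0.05 there were 2 higher and 2 lower, near the 7.25% and 6.86% of all tested genes. The median log2 fold change of the 23 was -0.02. DESeq2 called 1 of them higher, ATF4, and limma none. With the GC correction XPOT and ATF4 rose and EEF1A2, TSFM and QRSL1 fell, beside 10.2% of all tested genes higher and 9.77% lower. Without overexpression library 2, XPOT, GFM1 and ATF4 rose and EEF1A2, TUFM and GCN1 fell, beside 12.1% higher and 10.4% lower. ATF4 was the most abundant of the genes for tRNA export and the sensing of uncharged tRNA, with 594, 690.3 and 684 CPM in overexpression libraries, against 375, 402 and 402 CPM in empty vector libraries. Its groups did not overlap, and its log2 fold change of 0.74 ± 0.18 had an edgeR adjusted p of 0.0923.

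XPOT, the exporter of tRNA from the nucleus, was named after its values were seen. It had 288, 97.9 and 210.4 CPM in overexpression libraries, against 113, 76.2 and 94.0 CPM in empty vector libraries, and overexpression library 2 lay within the empty vector range (1.07, adjusted p = 0.209). The adjusted p of XPOT was 0.000608 with the GC correction and 0.000586 without that library. EEF1A2, an isoform of the factor that delivers charged tRNA to the ribosome and likewise named after its values were seen, had 26.2, 48.4 and 29.95 CPM in overexpression libraries, against 57.0, 70.2 and 66.05 CPM in empty vector libraries (-0.89, adjusted p = 0.163), and its groups did not overlap. The adjusted p of EEF1A2 was 0.000266 with the GC correction and 0.000758 without overexpression library 2. EEF1A1, the abundant isoform of the same factor, had a log2 fold change of 0.35, AIMP2, a scaffold of the multisynthetase complex, -0.10, TUFM, the mitochondrial delivery factor, -0.18, and DTD1, which removes D-amino acids from tRNA, 0.19. For selenocysteine, neither SEPSECS (0.40) nor PSTK (-0.12) was called.

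Some members share sequence with neighbours, and strand use in counting is not given in the sources used here, so reads from stretches annotated to both a member and a neighbour cannot be assigned with certainty. The annotated span of 14 members overlapped that of another gene with at least 30 counts. MARS overlapped DDIT3, a stress-response factor on the opposite strand, over 982 bases; DDIT3 averaged 34.3 CPM in overexpression libraries and 19.6 CPM in empty vector libraries (0.81, adjusted p = 0.149), far below MARS. WARS overlapped WDR25 over 388 bases, and YARS overlapped S100PBP over 1387 bases; those neighbours averaged 20.4 and 13.1 CPM in overexpression libraries and 13.5 and 13.5 CPM in empty vector libraries. HARS and HARS2 lie head to head and overlap over 437 bases. HARS2 also overlapped ZMAT2, on the same strand, over 639 bases. ZMAT2 averaged 69.4 CPM in overexpression libraries and 71.2 CPM in empty vector libraries, above the 21.0 and 28.5 CPM of HARS2, whose own values are therefore uncertain. SARS2 overlapped MRPS12, whose level was 129 CPM in overexpression libraries and 139 CPM in empty vector libraries, over 349 bases, which makes its own low value uncertain. YARS2 overlapped DNM1L, on the opposite strand, over 18161 bases of annotated span. DNM1L averaged 28.3 CPM in overexpression libraries and 27.3 CPM in empty vector libraries. YARS2 itself averaged 31.0 and 37.1 CPM, and its values are uncertain as well. Of 14 pseudogenes named after a member, 13 had no count in any library and the other, IARS2P1, had 40 counts over the 6 libraries.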

How the data were processed

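The authors deposited a table of raw counts per gene and FPKM values for the same 6 libraries. HISAT2 2.0.5 and the build hg19 are named per the submitters' processing notes, yet the coordinates in the deposited table equal those of GENCODE 29 on GRCh38 for all 58735 genes, and that build is used here; neither the counting program nor its use of strand is stated in the sources used here. A recomputation gave 1 constant FPKM to count ratio per library and gene length, so that the authors' FPKM follow from the deposited counts with a scaling factor per library.

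The counts were tested with edgeR 4.0.16 (R 4.3.3): genes with at least 10 counts by filterByExpr and 15 in total, 14520 in all, holding all but 0.129% of counts, TMM scaling, robust dispersions, and a quasi-likelihood test of overexpression against empty vector with Benjamini-Hochberg adjustment over all tested genes, called under 0.05. The common biological coefficient of variation was 26.6%. The SE of a log2 fold change was its size divided by the square root of the quasi-likelihood F statistic. It therefore rests on dispersions estimated across genes and is not the SE of the replicates of that gene alone. With 3 libraries a group, an exact permutation test of a single value cannot go below p = 0.1 and was not used. CPM use TMM-scaled library sizes, with a prior count of 2 on the log2 scale. Alternatives were DESeq2 1.42.0 (size factors, Wald test), other filters, limma 3.58.1 on log2(FPKM + 1) or log2(FPKM + 0.1), a loess GC correction per library (span 0.3), a replicate block, and leaving out libraries. The edgeR, DESeq2, limma and GC-corrected fits were run on simulated independent counts with known changes. The simulation held no GC-linked shift between libraries and no shared replicate effect, so it cannot show how the tests handle these. Promoter windows and symbols came from RefSeq tables.

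All 36 members are named. Of the related genes, those called, or else the most abundant of each list, are named, with others stated as chosen after their values were seen. The genes not tested and SEPSECS, the other gene of the selenocysteine list, are named as well. The members and lists were chosen with earlier results of these data known. Protein sequences are not used here, and 1 promoter sequence is not reported here.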

Additional observations from a re-analysis of the deposited data

How the results depend on the processing

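The 7 cytosolic calls were also made by DESeq2's Wald test, with IARS as an addition, and 6 of the 7 by edgeR with DESeq2's size factors and by limma on log2(FPKM + 1). The count of cytosolic genes that rose, 7 in the test reported, was 11 with no filter, 11 with the GC correction, 12 with the replicate block, 12 with the block and GC correction together, 12 with both libraries numbered 2 left out and 0 with limma on log2(FPKM + 1) without a filter; leaving out 1 library gave 0 to 12. Cytosolic genes that fell numbered 1 with the block, 1 without both libraries numbered 2, 2 with the GC correction and 2 with block and GC, and 0 to 1 with 1 library left out. Mitochondrial genes that rose numbered 1 with the GC correction and 1 with block and GC; those that fell numbered 1 in each of these, 1 without both libraries numbered 2, and 0 to 1 with 1 library left out. Over all genes, 181 calls became 565 with DESeq2, 688 with no filter, 1937 with the block, 2754 without both libraries numbered 2, 12 with limma without a filter, 2903 with the GC correction and 3326 with block and GC, and 25 to 3365 with 1 library left out; the cause was not tested.

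The cytosolic median log2 fold change, 0.86, was 0.70 with limma on log2(FPKM + 1), filtered or not, 0.69 with the GC correction, 0.67 with block and GC, and 0.46 (without overexpression library 1) to 1.08 (without empty vector library 1). The mitochondrial median, -0.18, was -0.30 (without overexpression library 2) to -0.14 with 1 library left out. The difference of class medians, 1.04, was 0.87 with limma on log2(FPKM + 1), filtered or not, 0.88 with the GC correction, 0.87 with block and GC, and 0.62 to 1.33 with 1 library left out, so the cytosolic median stayed above the mitochondrial one under these settings. Without GARS and KARS, an alternative chosen after seeing the data, 6 of 18 cytosolic genes rose and the median was 0.86.

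Directions that turned were of genes not called. With 1 library left out, log2 fold changes ran from -0.10 to 0.54 for DARS, -0.16 to 0.10 for FARSB, -0.22 to 0.28 for QARS, -0.11 to 0.41 for VARS, -0.27 to 0.07 for CARS2, -0.19 to 0.52 for IARS2, -0.26 to 0.11 for NARS2 and -0.33 to 0.06 for RARS2, the sign turning without overexpression library 1 (DARS, CARS2, IARS2), overexpression library 2 (FARSB, QARS, VARS, NARS2, RARS2) or empty vector library 1 (FARSB, NARS2). Without both libraries numbered 2, QARS was -0.18 and VARS -0.01; IARS2 was -0.02 with the GC correction and -0.04 with block and GC.

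The groups share replicate numbers. Deviations of libraries with the same number correlated at 0.448, 0.585 and 0.0335 for numbers 1, 2 and 3. Between overexpression and empty vector libraries of different numbers the correlations ran from -0.583 to 0.224. The value for number 3 lay inside that range, and the numbers were not taken as pairing. An effect shared by libraries of the same number was fitted as the replicate block, and the effect itself was not tested. With the replicate block 12 cytosolic genes were called higher, while calls over all genes went from 181 to 1937.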
